A study of Homo sapiens with 9 samples.

Results

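The Fc gamma receptors bind the constant part of IgG, and 8 genes of this group and its partners were taken by symbol from a count table of 30000 rows: FCGR1A, FCGR1B, FCGR2A, FCGR2B, FCGR2C, FCGR3A, FCER1G and FCGRT. All 8 were present, and all 8 had enough reads to be tested among 18437 rows. The 9 libraries, 3 per group, are RNA-seq of THP-1, an established human line of monocytic leukaemia cells. The control cells (label Ctrl) received no ectosomes as far as the labels say. A second group carries the label Scramble_Ecto and is read here as cells incubated with ectosomes, vesicles shed from the plasma membrane, of Huh7 hepatoma cells with a scramble shRNA. The remaining group, PKM2_KD_Ecto, is read as cells incubated with ectosomes of Huh7 cells in which PKM2, an isoform of pyruvate kinase, was knocked down. All groups are the same cell line, and only one donor line of ectosomes was used. The sources used here give no ectosome dose, no incubation time and no check of the knockdown in Huh7. Nothing says that the replicates were separate cultures, so each p-value speaks only for the variation among these 9 libraries, and that variation may be technical.

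As background, FCGR1A encodes the high-affinity receptor CD64, which engages monomeric IgG, while FCGR2A (CD32a), FCGR2C (CD32c) and FCGR3A (CD16a) encode receptors that bind IgG mainly in immune complexes. FCGR1A and FCGR3A signal through FCER1G, the common gamma chain, whose activation motif recruits the kinase SYK. FCGR2A carries such a motif in its own tail. FCGR2B (CD32b) carries an inhibitory motif that recruits the phosphatase SHIP1, encoded by INPP5D. FCGRT encodes the heavy chain of FcRn, which pairs with B2M and returns IgG from endosomes to the cell surface. In monocytes and macrophages these receptors drive uptake of opsonised particles, and the balance of activating to inhibitory members sets the threshold of the response.

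The deposited table holds raw counts, which were scaled here to CPM (counts scaled to a common library total) with TMM factors, and differences were tested with edgeR's quasi-likelihood test on all 9 libraries. Adjusted p is by Benjamini-Hochberg over all 18437 rows, with 0.05 as the threshold. Totals were 17744587 to 23864381 counts per library. One library stood apart before any result: control replicate 3 differed from the other control libraries with a chi-square per degree of freedom of 49.2 and 45.4, against 5.15 between control replicates 1 and 2 and 2.60 to 7.23 within the ectosome groups. Among the 8 genes, it lay 8.63-fold below the mean of the other controls for FCGR2B, 5.49-fold for FCGR2C, 3.65-fold for FCER1G and 2.22-fold for FCGR1B, and within 1.35-fold for FCGR2A, FCGR1A and FCGRT. Values without this library are given beside results of the 8 genes that change sign or side of the threshold, and beside some list counts. Other list counts are from all 9 libraries and can also change without it. The monocytic marker list was present in full (10 of 10 genes), with a summed level of 688 to 771 CPM in control, 1021 to 1077 in scramble-ectosome and 1713 to 1911 in PKM2-knockdown-ectosome libraries. Within the list 4 genes rose and 4 fell with scramble ectosomes, beside 34.6% and 33.2% of all rows: SPI1, ITGAX, TYROBP and CSF1R were higher, while LYZ went from 203 to 17.6 CPM, MPO from 4.18 to 0.446, ITGAM from 23.5 to 13.5 and CD33 from 58.6 to 43.04. Between scramble and PKM2-knockdown ectosomes 7 genes of the list rose and 0 fell (median log2 0.78), beside 31.4% and 30.3% of all rows. PKM2-knockdown ectosomes against control gave 6 higher and 2 lower, beside 27% and 26.7%. CD68 was close to 0 in each group, and CD14 stood at 4.85, 6.21 and 92.2 CPM. Of 16 hepatocyte markers, 8 were in the table and summed to 3.37 to 8.14, 6.66 to 7.53 and 41.4 to 47.9 CPM. SERPINA1, which monocytes also express, was at 2.01, 3.53 and 37.4 CPM and gave most of the sum with PKM2-knockdown ectosomes, and ALB had 7, 7 and 27 reads. Markers of B cells summed to at most 24.5 CPM and those of T and NK cells to at most 39.4 CPM. The part of these marker changes in the receptor results was not tested.

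Among the receptors, 7 of the 8 genes sit on chromosome 1, and the FCGR2 and FCGR3 genes form one cluster of near copies at 1q23. On GRCh38 with GENCODE release 29, FCGR2A lies at chr1:161505430-161524013, FCGR2C at chr1:161581339-161605662 and FCGR2B at chr1:161663147-161678654, all on the plus strand, with FCGR3A at chr1:161541759-161550737 on the minus strand. FCER1G lies nearby at chr1:161215234-161220699. FCGR1A, at chr1:149782671-149792518, and FCGR1B, at chr1:121087345-121096310, are near copies of each other elsewhere on the chromosome, and FCGRT is at chr19:49506816-49526333. FCGR2C is annotated as a polymorphic pseudogene. RefSeq windows (GRCh38.p14) covering the 250 bases before a transcription start were matched for 6 of the 8 genes, 11 windows in all, with none for FCGR1B and FCGR2C in that table. The patterns searched, on both strands, were TTCNNNGAA, the GAS element, which is its own reverse complement, an interferon response element made of a pair of GAAA with any 2 bases between them, and GAGGAA, a PU.1-type core. The windows of FCGR1A (chr1:149782444-149782693), FCGR2A (chr1:161505207-161505456) and FCGR2B (chr1:161662893-161663142, the second of its windows), all on the plus strand, are shown as a description of the sequence before these genes, since they hold most of the matches, which are in capitals.
FCGR1A: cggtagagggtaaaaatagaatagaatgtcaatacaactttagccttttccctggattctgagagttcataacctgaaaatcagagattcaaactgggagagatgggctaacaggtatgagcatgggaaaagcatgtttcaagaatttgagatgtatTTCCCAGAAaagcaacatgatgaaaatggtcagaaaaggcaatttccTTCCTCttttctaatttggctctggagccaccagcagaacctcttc
FCGR2A: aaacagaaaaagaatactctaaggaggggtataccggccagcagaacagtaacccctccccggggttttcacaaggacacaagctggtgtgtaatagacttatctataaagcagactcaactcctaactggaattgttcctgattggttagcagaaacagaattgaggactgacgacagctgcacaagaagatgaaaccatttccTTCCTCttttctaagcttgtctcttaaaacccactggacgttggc
FCGR2B: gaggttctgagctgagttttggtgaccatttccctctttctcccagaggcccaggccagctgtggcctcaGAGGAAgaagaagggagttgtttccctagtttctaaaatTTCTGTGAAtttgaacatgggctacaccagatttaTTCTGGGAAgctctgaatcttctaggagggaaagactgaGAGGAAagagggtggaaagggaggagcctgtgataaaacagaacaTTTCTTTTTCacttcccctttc

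FCGR1A held TTCCCAGAA from 93 to 85 bases before the start and TTCCTC, which is GAGGAA on the other strand, from 46 to 41. FCGR2A held the same TTCCTC from 45 to 40 bases before the start and no match to the other patterns. Both lie in a run of 20 bases common to the FCGR1A and FCGR2A windows, atttccttcctcttttctaa, which begins 52 and 51 bases before the start. FCGR2B held TTCTGTGAA at 141 to 133, TTCTGGGAA at 106 to 98 and TTTCTTTTTC, the interferon pattern on the other strand, at 22 to 13 bases before the start, with GAGGAA at 180 to 175 and 67 to 62. One of the FCGR3A windows held GAAAAGGAAA, the interferon pattern, at 52 to 43. The windows of FCER1G and FCGRT, the other FCGR2B window and the remaining FCGR3A windows held none of these letters. Of 35116 promoter windows of this length, 6.57% held TTCNNNGAA, 3.02% the interferon pattern and 23.6% GAGGAA. These matches describe the letters only.

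The count of members past the threshold differed between comparisons, beside a background in which most genes differed. Scramble ectosomes against control gave 1 member higher (FCGR2A) and 4 lower (FCGR1A, FCGR1B, FCGR2C and FCGRT), with 3 not passing, where 67.8% of all rows tested passed, 34.6% upward and 33.2% downward. PKM2-knockdown against scramble ectosomes gave 6 members higher, 0 lower and 2 not passing, beside 61.6% of all rows, 31.4% upward and 30.3% downward. PKM2-knockdown ectosomes against control gave 4 higher and 1 lower, beside 53.7% of rows, 27% upward and 26.7% downward. The libraries of the groups did not overlap for 5, 8 and 5 members in these comparisons, where this held for 71.3%, 74.5% and 60.5% of all rows. The median log2 difference of the 8 genes was -1.59, 2.33 and 0.57, against -0.0063, 0.03 and -0.0072 over all rows tested. Each pair of comparisons shares 1 group of libraries, so a gene that was low in the scramble-ectosome libraries entered both comparisons with that group. FCGR2B and FCGR3A passed the filter on low counts only through the PKM2-knockdown-ectosome libraries. Without control replicate 3, the counts became 1 higher and 6 lower, 7 higher and 1 lower, and 4 higher and 1 lower. The shares of all rows rose as well, to 36.9% higher and 34.7% lower, 36.1% and 35.4%, and 29.1% and 28.6%.

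**Figure D1:**
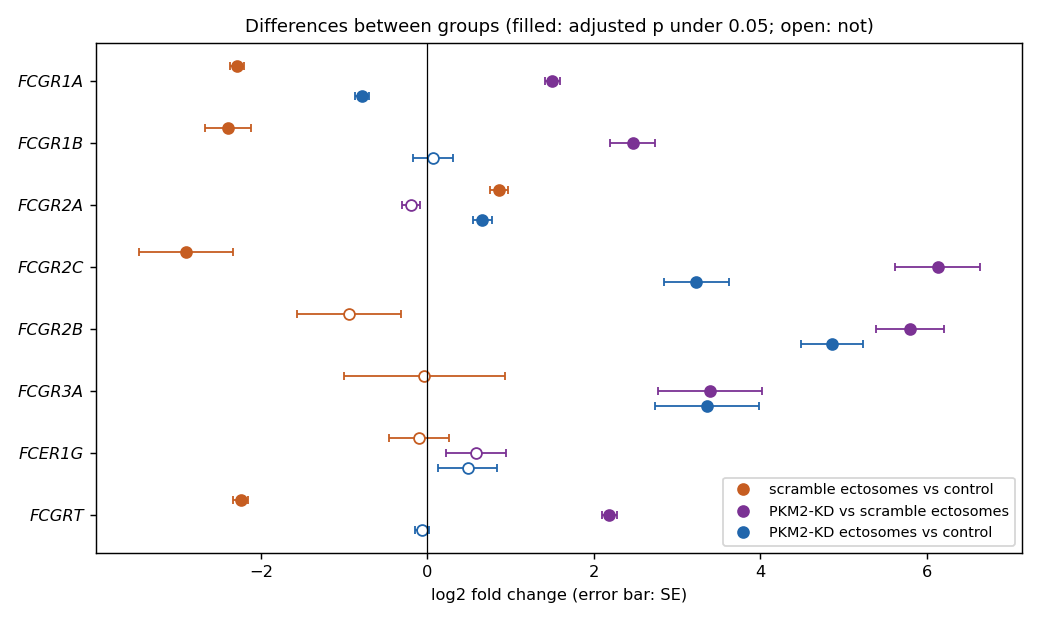
Log2 fold change of each of the 8 genes (x axis, error bars SE) in the 3 comparisons, with filled points where the edgeR adjusted p was under 0.05. FCGR1A, FCGR1B, FCGR2C and FCGRT lie left of 0 for scramble ectosomes against control and right of 0 for PKM2-knockdown against scramble ectosomes, and FCGR2A is the member past the threshold on the right in the first of these.

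FCGR1A, the high-affinity receptor, was lowest in the cells given scramble ectosomes. Its level was 69.5, 77.5 and 66.1 CPM in the control libraries, 14.04, 15.3 and 14.3 with scramble ectosomes and 40.9, 39.5 and 43.2 with PKM2-knockdown ectosomes. No library of one group overlapped another group, and the PKM2-knockdown-ectosome libraries sat between the others. The level fell 4.88-fold with scramble ectosomes (log2 -2.29, SE 0.09, edgeR adjusted p = 8.24e-09), and was 2.83-fold higher with PKM2-knockdown than with scramble ectosomes (log2 1.501, SE 0.09, adjusted p = 2.81e-07). Against control, PKM2-knockdown ectosomes left it 1.73-fold lower (log2 -0.79, SE 0.08, adjusted p = 2.29e-05). In bulk RNA, fewer cells with a transcript and less of it per cell cannot be told apart.

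FCGR1B, a partial copy of FCGR1A, had 19.2, 20.3 and 8.89 CPM in control libraries, 2.80, 3.37 and 3.07 with scramble ectosomes, and 16.6, 17.6 and 16.7 with PKM2-knockdown ectosomes. The scramble-ectosome libraries were again below all others, while the other groups overlapped through control replicate 3. The gene fell 5.26-fold with scramble ectosomes (log2 -2.39, SE 0.27, edgeR adjusted p = 1.87e-05), and by log2 2.69 without control replicate 3 (log2 -2.69). It was 5.52-fold higher with PKM2-knockdown than with scramble ectosomes (log2 2.47, SE 0.27, adjusted p = 2.23e-05). PKM2-knockdown ectosomes against control gave log2 0.07 (SE 0.24, adjusted p = 0.825), and -0.22 without control replicate 3 (adjusted p = 0.0649). FCGR1B made up 21.7%, 20.7% and 11.8% of the reads of the FCGR1A and FCGR1B pair in control, 16.6%, 18.03% and 17.6% with scramble ectosomes, and 28.9%, 30.8% and 27.9% with PKM2-knockdown ectosomes.

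The FCGR1 copies may have exchanged reads. Of the 100-base windows of FCGR1A transcripts, 36.5% occur unchanged in FCGR1B or the pseudogene FCGR1CP, and 27.5% of those of FCGR1B occur in a relative. The sum of FCGR1A, FCGR1B and FCGR1CP does not depend on how counted reads were divided among them. Reads left uncounted because they matched several copies would be missing from the sum as well. It was 95.3 ± 12.8, 20.6 ± 1.42 and 64.0 ± 1.17 CPM (SD, n = 3) in the order control, scramble and PKM2-knockdown ectosomes. This sum fell 4.63-fold with scramble ectosomes (edgeR adjusted p = 2.84e-08), was 3.11-fold higher with PKM2-knockdown than scramble ectosomes (adjusted p = 4.85e-07), and 1.49-fold lower with PKM2-knockdown ectosomes than in control (adjusted p = 0.000636). The exons of HIST2H2BF and AC243772.2 overlap FCGR1A on the other strand. With the strand setting of the counting not given, their reads and those of FCGR1A cannot be told apart there. HIST2H2BF had 35, 44 and 23 counts in control, 44, 45 and 33 with scramble and 76, 71 and 46 with PKM2-knockdown ectosomes. AC243772.2 had 81, 115 and 72 counts in control, 30, 15 and 30 with scramble and 60, 54 and 43 with PKM2-knockdown ectosomes.

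**Figure D2:**
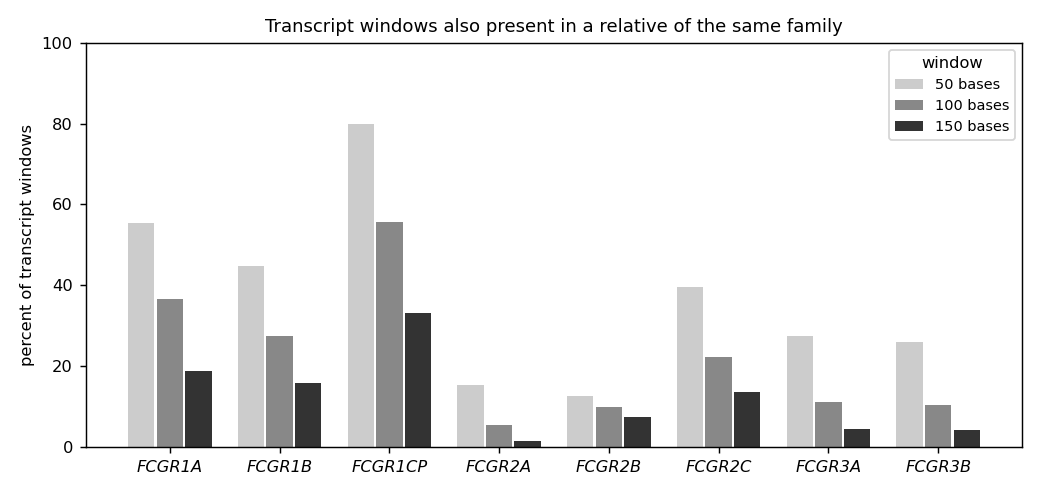
Percent of transcript windows of 50, 100 and 150 bases (y axis) that also occur in another gene of the same receptor family, for each FCGR gene. The FCGR1 genes and FCGR2C share the most, and FCGR2A shares 5.38% at 100 bases.

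FCGR2A, the activating CD32a, went the other way from FCGR1A. It had 47.8, 48.3 and 35.7 CPM in control libraries, 76.7, 80.8 and 81.2 with scramble ectosomes and 66.8, 70.4 and 71.5 with PKM2-knockdown ectosomes. All ectosome libraries were above all control libraries. The gene rose 1.81-fold with scramble ectosomes (log2 0.86, SE 0.11, edgeR adjusted p = 4.14e-05). The rise over control with PKM2-knockdown ectosomes was 1.58-fold (log2 0.66, SE 0.11, adjusted p = 0.000449). The difference between the kinds of ectosomes was -0.19 on the log2 scale (SE 0.11, adjusted p = 0.139), although the libraries did not overlap. Without control replicate 3, which is in neither group but widens the shared spread, this difference had an adjusted p of 0.00461.

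FCGR2C, another CD32 gene, which can encode an activating receptor, was lowest with scramble ectosomes and highest with PKM2-knockdown ectosomes. It had 102, 127 and 18 reads in control libraries (5.43, 5.47 and 0.994 CPM), 13, 12 and 8 with scramble ectosomes (0.587, 0.632 and 0.383 CPM) and 749, 931 and 631 with PKM2-knockdown ectosomes (36.8, 43.7 and 33.1 CPM). No groups overlapped, with control replicate 3 nearest to the scramble-ectosome libraries. The gene fell 7.48-fold with scramble ectosomes (log2 -2.90, SE 0.57, edgeR adjusted p = 0.000934). It was 70.3-fold higher with PKM2-knockdown than with scramble ectosomes (log2 6.14, SE 0.51, adjusted p = 2.82e-06) and 9.40-fold higher than in control (log2 3.23, SE 0.39, adjusted p = 5.83e-05). Without control replicate 3 the differences from control were -3.34 with scramble and 2.79 with PKM2-knockdown ectosomes (log2, edgeR adjusted p = 1.84e-10 and 1.12e-12).

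FCGR2B, the inhibitory receptor, was detected above a few reads in a single group. The control libraries held 9, 11 and 1 reads and the scramble-ectosome libraries 2, 3 and 6, against 205, 194 and 222 with PKM2-knockdown ectosomes. This corresponds to 0.336 ± 0.243, 0.179 ± 0.1002 and 10.3 ± 1.28 CPM (SD, n = 3). PKM2-knockdown ectosomes gave 55.9-fold more than scramble ectosomes (log2 5.80, SE 0.41, edgeR adjusted p = 9.17e-07) and 29.1-fold more than control (log2 4.86, SE 0.37, adjusted p = 2.12e-06). FCGR2B passed the filter on low counts only through the PKM2-knockdown-ectosome libraries, and so had to be high there to be tested. Between scramble ectosomes and control the difference was -0.94 (SE 0.63, adjusted p = 0.205), and -1.40 with an adjusted p of 0.0182 without control replicate 3. Leaving out that library, PKM2-knockdown ectosomes against control gave log2 4.41.

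**Figure D3:**
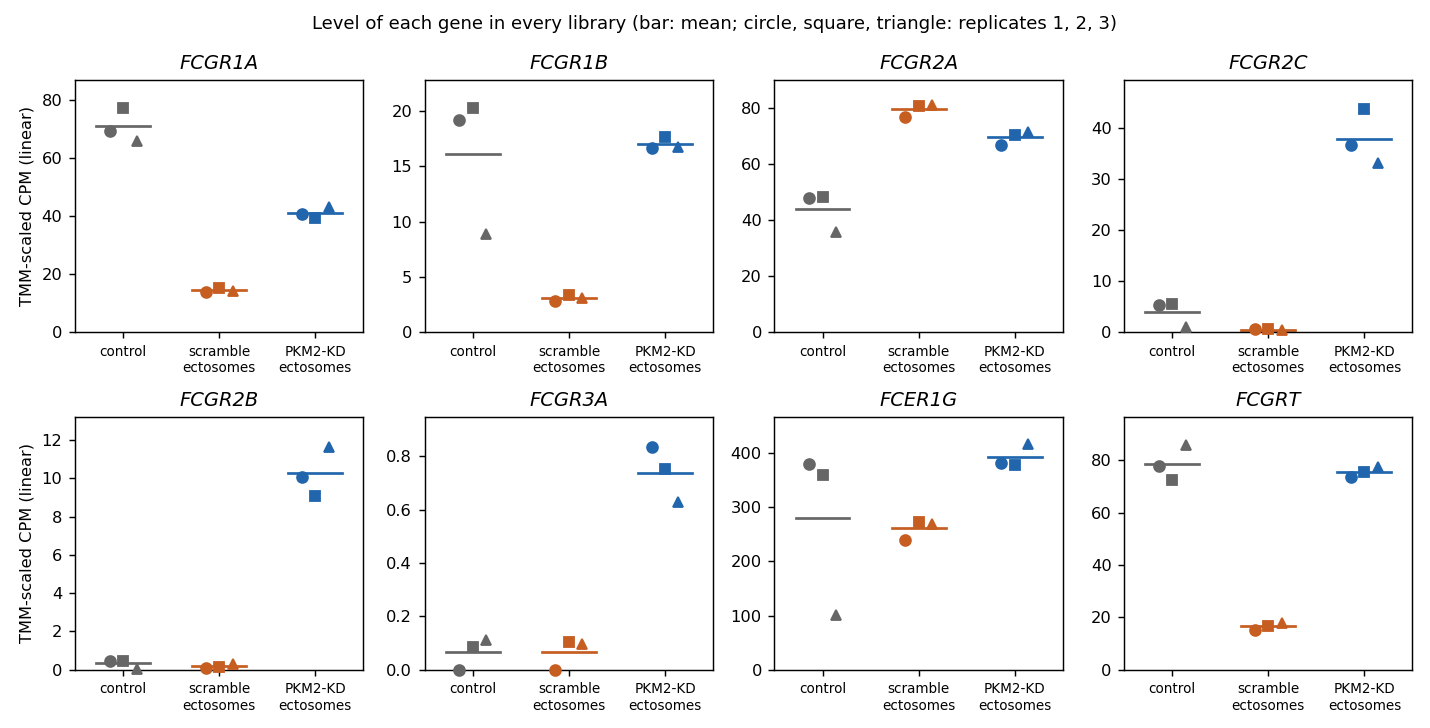
TMM-scaled CPM of each of the 8 genes (y axis, one panel per gene with its own scale) in the 9 libraries, with points for libraries and bars for group means. Control replicate 3 lies apart for FCER1G, FCGR2C and FCGR1B, and FCGR2B and FCGR3A rise from near 0 in the PKM2-knockdown-ectosome libraries.

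The make-up of the CD32 transcripts differed by group. FCGR2A took 89.0%, 89.0% and 97.1% of the FCGR2 reads in control, 99.1%, 99.03% and 99.2% with scramble ectosomes and 58.8%, 57.2% and 61.5% with PKM2-knockdown ectosomes. The share of FCGR2C was 10.1%, 10.1% and 2.71% in control, 0.758%, 0.774% and 0.468% with scramble, and 32.3%, 35.5% and 28.5% with PKM2-knockdown ectosomes. The inhibitory FCGR2B took 0.892%, 0.874% and 0.1504%, then 0.117%, 0.194% and 0.351%, and then 8.85%, 7.39% and 10.02%. With exact Clopper-Pearson 95% intervals, which cover counting error only, the lowest of the last set was 6.42% to 8.46% and the highest share in any other library 0.409% to 1.69%. The mean FCGR2B share was 8.53 percentage points higher with PKM2-knockdown than with scramble ectosomes and 8.11 points higher than in control. Both differences had a two-sided exact permutation p = 0.1, the smallest that 3 against 3 libraries can give. The share rests on the same FCGR2B reads as the fold changes of that gene, so it is no separate support for them. Scramble ectosomes differed from control by -0.418 points (exact permutation p = 0.3).

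**Figure D4:**
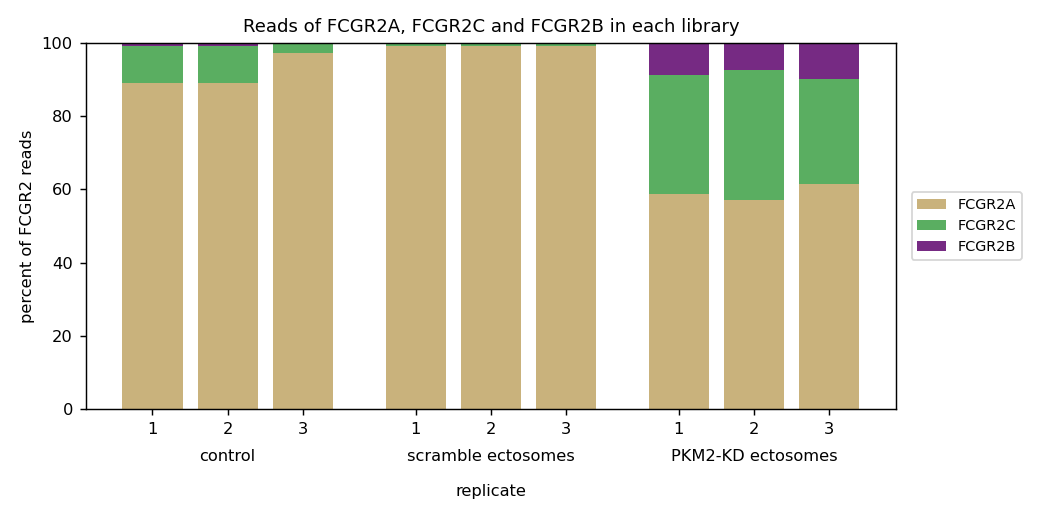
Percent of the reads of FCGR2A, FCGR2C and FCGR2B that each gene took (stacked bars, y axis from 0 to 100) in each of the 9 libraries. FCGR2A takes over 57% in every library, and FCGR2B is visible as a band of 7.39% to 10.02% in the PKM2-knockdown-ectosome libraries.

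How far the copies exchanged reads limits the FCGR2 values. Of the 100-base windows of FCGR2C, 22.3% occur unchanged in a relative, 16.1% in FCGR2B and 7.17% in FCGR2A, while 9.85% of those of FCGR2B and 5.38% of those of FCGR2A are shared. Summed over FCGR2A, FCGR2B and FCGR2C the level was 48.2 ± 9.97, 80.3 ± 2.52 and 117.7 ± 4.90 CPM (SD, n = 3). Any reads left uncounted because they matched several copies would be missing here too. The sum rose 1.66-fold with scramble ectosomes (log2 0.73, edgeR adjusted p = 0.000454), and was 1.47-fold higher with PKM2-knockdown than scramble ectosomes (log2 0.55, adjusted p = 0.00327). The rise of the sum with scramble ectosomes is opposite in sign to the fall of FCGR2C, which made up little of it. The clone-named AL590385.2, whose exons overlap FCGR2A and FCGR2C, had 1 to 14 counts per library, and AL451067.1, on the other strand at FCGR2B, at most 2.

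FCGR3A, the CD16a receptor of macrophages and NK cells, was barely detected. It had 0, 2 and 2 reads in the control libraries, 0, 2 and 2 with scramble ectosomes, and 17, 16 and 12 with PKM2-knockdown ectosomes, where the level was 0.738 ± 0.103 CPM (SD, n = 3). It was 10.5-fold higher with PKM2-knockdown than with scramble ectosomes (log2 3.40, SE 0.63, edgeR adjusted p = 0.000770) and 10.3-fold higher than in control (log2 3.36, SE 0.63, adjusted p = 0.00105). FCGR3A passed the filter on low counts only through the PKM2-knockdown-ectosome libraries, and so had to be high there to be tested. Between scramble ectosomes and control the estimate was -0.04 with an SE of 0.96, so a difference of moderate size was not detectable at this depth. Without control replicate 3 this estimate was 0.40 (edgeR adjusted p = 0.78). FCGR3B, its near copy, had 6, 2 and 4 reads per group and was not tested.

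FCER1G, the signalling chain of FCGR1A and FCGR3A, had 379, 360 and 101 CPM in control libraries, 240, 273 and 270 with scramble ectosomes and 382, 378 and 416 with PKM2-knockdown ectosomes. The libraries given PKM2-knockdown ectosomes were all above those given scramble ectosomes, and control replicate 3 was below every other library. No comparison passed the threshold: the log2 differences were -0.10 for scramble ectosomes against control (SE 0.36, edgeR adjusted p = 0.814), 0.59 for PKM2-knockdown against scramble ectosomes (SE 0.36, adjusted p = 0.176) and 0.48 for PKM2-knockdown ectosomes against control (SE 0.36, adjusted p = 0.276). Without control replicate 3 the first was -0.50 (adjusted p = 1.42e-06) the second 0.59 (adjusted p = 4.84e-08) and the third 0.08 (adjusted p = 0.308). The difference between the kinds of ectosomes was thus as large without that library, which is in neither group.

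FCGRT, the FcRn heavy chain, fell with scramble ectosomes, while PKM2-knockdown ectosomes against control missed the threshold. It had 77.7, 72.7 and 85.9 CPM in control, 15.2, 16.7 and 17.9 with scramble ectosomes and 73.5, 75.6 and 77.3 with PKM2-knockdown ectosomes. The scramble-ectosome libraries were far below the others, which overlapped. The fall was 4.74-fold (log2 -2.25, SE 0.09, edgeR adjusted p = 1.10e-08), and PKM2-knockdown ectosomes gave 4.55-fold more than scramble ectosomes (log2 2.18, SE 0.09, adjusted p = 3.85e-08). Against control the difference was -0.06 (SE 0.09, adjusted p = 0.578), and 0.0029 without control replicate 3 (adjusted p = 0.976).

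B2M, the light chain of FcRn and of MHC class I, moved the other way, with 644, 654 and 618 CPM in control, 1705, 1820 and 1817 with scramble and 1014, 950 and 1016 with PKM2-knockdown ectosomes. It rose by log2 1.48 with scramble ectosomes (edgeR adjusted p = 3.72e-08) and was lower by 0.84 with PKM2-knockdown than scramble ectosomes (log2 -0.84, adjusted p = 3.70e-06). Of the 5 tested genes of FcRn assembly and recycling, 3 rose and 1 fell with scramble ectosomes, beside 34.6% and 33.2% of all rows. Between scramble and PKM2-knockdown ectosomes 0 rose and 3 fell, beside 31.4% and 30.3% of all rows. The list medians were 0.47 and -0.54, against -0.0063 and 0.03 over all rows. EXOC6, a subunit of the exocyst that tethers vesicles, was on this list at log2 0.92 and -1.36, as was RAB11FIP1, a RAB11 effector, at 0.47 and -0.54. Scaled by library totals alone, RAB11FIP1 passed in neither comparison (0.26, adjusted p = 0.157, and -0.36, adjusted p = 0.0606). RAB4A, a GTPase of early endosome recycling, fell by 0.79 with scramble ectosomes (log2 -0.79, adjusted p = 0.000172).

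Per kilobase of annotated exon, which allows a rough comparison of different genes, FCER1G led in each group with means of 291, 271 and 407 CPM per kb. Reads shared between near copies may shift the values of the FCGR genes, and by unequal amounts. In control cells FCGR1A (23.7) was followed by FCGRT (18.9), FCGR2A (8.26), FCGR1B (4.77), FCGR2C (1.11), FCGR2B (0.0505) and FCGR3A (0.0221), in CPM per kb. With scramble ectosomes FCGR2A (15.0) came after FCER1G, ahead of FCGR1A (4.86), FCGRT (3.98), FCGR1B (0.910) and FCGR2C (0.149), with FCGR2B (0.0269) and FCGR3A (0.0227) last. With PKM2-knockdown ectosomes the order was FCGRT (18.1), FCGR1A (13.7), FCGR2A (13.1), FCGR2C (10.6), FCGR1B (5.02), FCGR2B (1.54) and FCGR3A (0.249). Neighbours in these orders overlapped between libraries only for FCGR2B and FCGR3A in the first 2 groups and for FCGR1A and FCGR2A in the last. By these RNA levels FCGR2A ranked first among the genes of ligand-binding IgG receptors with scramble ectosomes, and FCGR1A in control cells. Protein at the cell surface was not measured.

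The genes closest in profile to each member were found among 11408 genes by the root mean square difference of centred log2(CPM + 0.5) over the 9 libraries. FCGR1A lay nearest to MTHFD1, PODXL2 and CHAF1B, at 0.101 to 0.103, and FCGRT to ALAD, IL11RA and HELLS, at 0.106 to 0.112. FCGR2A lay nearest to CHMP5 (0.0442), PGPEP1 and MAPK7. FCGR1B was nearest to AL391832.2 (0.108), DNM1 and GSN, and FCER1G to UST (0.130), SLCO4C1 and PLEKHA4. FCGR2C had no close match other than HSPA7, a heat shock pseudogene, at 0.306, and the next were SLC44A2 at 0.597 and LRP1 at 0.710. FCGR2B and FCGR3A were below the mean of 5 CPM that this measure required.

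HSPA7 starts 628 bases downstream of FCGR2C on the same strand. It had 104, 118 and 7 reads in control, 2, 5 and 6 with scramble ectosomes and 655, 820 and 591 with PKM2-knockdown ectosomes, so control replicate 3 was low here as for FCGR2C. It fell by 4.11 on the log2 scale with scramble ectosomes (log2 -4.11, edgeR adjusted p = 0.00136) and was 7.29 higher with PKM2-knockdown than scramble ectosomes (adjusted p = 1.06e-05). Without control replicate 3 the first of these was -4.62, and HSPA7 passed the filter on low counts only with the PKM2-knockdown-ectosome libraries. HSPA6, its near copy 526 bases downstream of FCGR2A, had 1.07, 3.42 and 4.02 CPM, with log2 differences of 1.66 (adjusted p = 0.000278) and 0.23 (adjusted p = 0.428). Among the 15 tested neighbours on a list for the 1q23 region, 5 rose and 5 fell with scramble ectosomes, and 7 rose and 4 fell between scramble and PKM2-knockdown ectosomes (medians -0.05 and 0.33), beside 34.6% and 33.2%, and 31.4% and 30.3%, of all rows. PPOX, a heme synthesis enzyme that lies near FCER1G, fell by log2 3.25 with scramble ectosomes (log2 -3.25, adjusted p = 4.27e-08), and was 2.16 higher with PKM2-knockdown than scramble ectosomes (adjusted p = 1.52e-06).

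Among 13 other Fc receptor genes in the table, 10 were tested, of which 5 rose and 2 fell with scramble ectosomes and 6 rose and 2 fell between scramble and PKM2-knockdown ectosomes, beside 34.6% and 33.2%, and 31.4% and 30.3%, of all rows. Of these 6, FCAMR, PIGR, FCRL6 and FCRLB passed the filter on low counts only with the PKM2-knockdown-ectosome libraries. They thus had to be high there to be counted. Without control replicate 3 the counts of this list were 5 and 4, and 7 and 3. The shares of all rows were then 36.9% and 34.7%, and 36.1% and 35.4%. FCAR, the IgA receptor that also signals through FCER1G, was at 1.47, 39.8 and 14.2 CPM, with log2 differences of 4.74 with scramble ectosomes (edgeR adjusted p = 3.13e-07) and -1.49 for PKM2-knockdown against scramble ectosomes (adjusted p = 0.000417). FCER2, the low-affinity IgE receptor CD23, was at 20.2, 4.82 and 3.05 CPM and fell in both comparisons (log2 -2.07 and -0.66, adjusted p = 2.53e-07 and 0.00266). FCAMR, a receptor of IgA and IgM, was at 0.308, 0.375 and 7.86 CPM and higher with PKM2-knockdown than scramble ectosomes (log2 4.38, adjusted p = 1.76e-06). FCMR, the IgM receptor, and PIGR, which carries polymeric immunoglobulins across epithelia, were higher too (log2 2.84 and 4.63, adjusted p = 1.81e-05 and 7.54e-05). TRIM21, an antibody receptor of the cytosol, rose with scramble ectosomes by log2 0.81 and gave -0.17 between the kinds of ectosomes (adjusted p = 0.0646). FCRLA, FCRLB and FCRL6, Fc receptor-like genes, rose with scramble ectosomes from at most 0.200 CPM, and FCGR1CP fell (log2 -1.47, adjusted p = 0.000132). FCRLB was log2 0.998 higher with PKM2-knockdown than scramble ectosomes (adjusted p = 0.0181). This call was lost in 3 of the alternative settings, with an adjusted p of up to 0.0726. MS4A2, the beta chain of the IgE receptor, had 45, 0 and 8 reads and was not tested.

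Of the adaptors like FCER1G, TYROBP (DAP12) rose with scramble ectosomes (82.2 to 223 CPM, log2 1.44, edgeR adjusted p = 0.000287), and was at 348 CPM with PKM2-knockdown ectosomes (log2 0.65 against scramble, adjusted p = 0.0318, a call lost on leaving out any of 5 single ectosome libraries). HCST (DAP10) rose by log2 0.73 with scramble ectosomes and was lower with PKM2-knockdown than scramble ectosomes (log2 -0.72, adjusted p = 0.00635). CD247 had 10, 11 and 1 reads and was not tested.

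In the activating signalling list, 12 of 28 genes rose and 13 fell with scramble ectosomes (median -0.13), and 13 rose and 5 fell between scramble and PKM2-knockdown ectosomes (median 0.27). Of all rows, 34.6% rose and 33.2% fell in the first of these comparisons, and 31.4% and 30.3% in the second. Without control replicate 3 the counts were 13 and 14, and 17 and 8. The shares of all rows were then 36.9% and 34.7%, and 36.1% and 35.4%. SRC, a kinase of the family that phosphorylates activation motifs, was at 16.0, 367 and 470 CPM (log2 4.51 with scramble ectosomes, edgeR adjusted p = 3.85e-07), and FGR, of the same family, at 5.06, 55.7 and 78.0 CPM (log2 3.44, adjusted p = 1.56e-07). PIK3R5, a regulatory subunit of PI3K gamma, rose by log2 2.65, whereas PIK3CD, the delta catalytic subunit, fell from 324 to 114 CPM (log2 -1.51). PLCG1, which produces the second messengers downstream of SYK, was at 39.3, 16.2 and 40.7 CPM, falling with scramble ectosomes (log2 -1.28, adjusted p = 2.29e-07) and higher by log2 1.33 with PKM2-knockdown than scramble ectosomes (adjusted p = 3.82e-07). CARD9, an adaptor that links SYK to NF-kB, gave log2 -1.34 and 0.73. SYK itself, named after its values were seen, was at 212, 150 and 211 CPM (log2 -0.49 and 0.49, adjusted p = 0.00216 and 0.00276).

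**Figure D5:**
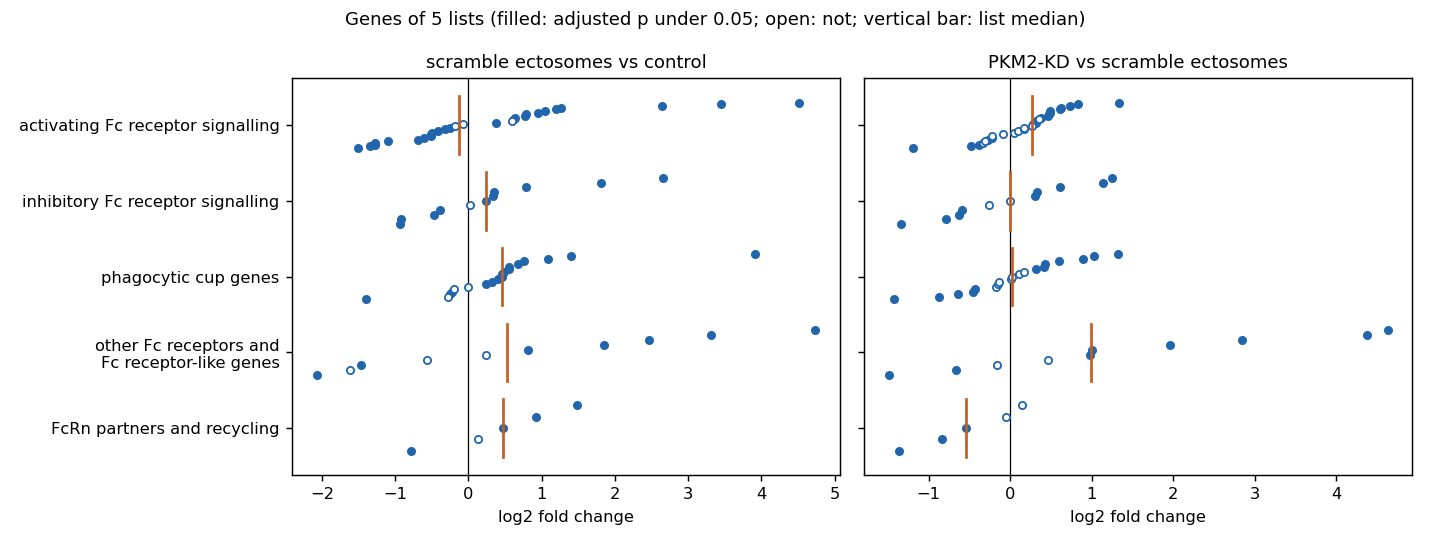
Log2 fold change of every tested gene (points) of 5 gene lists on the y axis, for scramble ectosomes against control (left) and PKM2-knockdown against scramble ectosomes (right), with vertical bars at list medians. Filled and open points mark genes past and not past the threshold, and both signs occur in most lists.

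In the inhibitory list, 6 of 11 genes rose and 4 fell with scramble ectosomes (median 0.24). Between scramble and PKM2-knockdown ectosomes 5 rose and 4 fell (median -0.0049). Without control replicate 3 the counts were 7 and 4, and 5 and 5. The shares of all rows, with and without that library, are those given for the activating list. INPP5D (SHIP1), the phosphatase that FCGR2B recruits, was at 349, 184 and 406 CPM, with log2 -0.92 with scramble ectosomes (edgeR adjusted p = 0.000198) and 1.14 between the kinds of ectosomes (adjusted p = 5.83e-05). PTPN6 (SHP-1), a phosphatase of other inhibitory receptors, gave -0.94 and 1.24 (adjusted p = 0.00101 and 0.000194). PAG1, the membrane anchor of the kinase CSK, ran opposite, at 62.8, 397 and 157 CPM, rising by log2 2.66 with scramble ectosomes (adjusted p = 1.19e-05).

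Of 19 tested phagocytic cup genes, 13 rose and 3 fell with scramble ectosomes (median 0.46). Between scramble and PKM2-knockdown ectosomes 7 rose and 5 fell (median 0.02). The shares of all rows were 34.6% and 33.2%, and 31.4% and 30.3%. Without control replicate 3 the cup gene counts were 12 and 5, and 8 and 8. The shares of all rows were then 36.9% and 34.7%, and 36.1% and 35.4%. BIN1, a membrane-bending protein, was at 10.7, 161 and 59.7 CPM (log2 3.91 and -1.43, edgeR adjusted p = 5.27e-07 and 0.000498), and PLD1, a phospholipase, at 30.8, 11.7 and 29.1 CPM (log2 -1.40 and 1.32). Among 9 myeloid and interferon transcription factors, 6 rose and 2 fell with scramble ectosomes (median 0.93), and 4 rose and 2 fell between the kinds of ectosomes (median 0.63). Without control replicate 3 the transcription factor counts were 6 and 2, and 6 and 3. The shares of all rows to set beside these counts, with and without that library, are those given for the cup genes. IRF1 was at 25.5, 111 and 35.8 CPM (log2 2.12, adjusted p = 1.11e-08, then -1.63, adjusted p = 1.38e-07), while IRF8 fell from 891 to 83.05 CPM and was at 178 CPM with PKM2-knockdown ectosomes (log2 -3.42, then 1.10). SPI1, which encodes PU.1, rose with scramble ectosomes (log2 0.97, adjusted p = 2.20e-05).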

How the data were processed

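RNA of THP-1 cells was sequenced in 9 libraries, 3 per group, after Trizol extraction and NEBNext library preparation, per the labels' protocols. The values are raw read counts by gene symbol, deposited as 1 table. The submitters' processing notes name HISAT2 2.0.5, featureCounts 1.5.0-p3 and GRCh38/hg38. Neither annotation release nor strand setting is given there. The lowest row total was 4 counts, 355 rows repeat a symbol and 24 rows have names turned into dates, none of which are members.

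Groups were taken from the sample labels. Counts were filtered with filterByExpr (minimum count 10), scaled by TMM and fitted with edgeR 4.0.16 (R 4.3.3) in 1 quasi-likelihood model of all 9 libraries with a term for group alone and 6 residual degrees of freedom. The biological coefficient of variation common to all genes was 13.3%. Tests were two-sided with Benjamini-Hochberg adjustment over 18437 rows. SEs were derived from the log2 fold change and the F statistic (absolute value over the square root of F) and may be too small at few reads. Exonic lengths and positions are from GENCODE release 29, which held 99.92% of the symbols. Sequence windows are from RefSeq.

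The fit was tested on simulated data with known changes. The 8 members and all gene lists were chosen with earlier results of these data known. The named genes are the members, up to 3 genes per list with the smallest p in each comparison, all tested genes of the 3 short receptor, adaptor and recycling lists, and the 3 nearest profiles to each member. Marker genes and SYK were named in addition, and 1 gene that the rule takes is not reported here. Alternatives were library totals, DESeq2 1.42.0 with its size factors, no filter, fitting 2 groups only, the replicate block, summed copies and leaving out each library.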

Additional observations from a re-analysis of the deposited data

How the results depend on the processing

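Over 15 settings each, the number of genes past the threshold stayed within 1.5 times the main count: 12492 for scramble ectosomes against control (11473 to 13640), 11365 for PKM2-knockdown against scramble ectosomes (10175 to 13617) and 9904 for PKM2-knockdown ectosomes against control (8399 to 10997). The number of members past it ran from 5 to 7, 6 to 8 and 5 to 5. Scaling by library totals alone moved the median of all genes by -0.20, 0.17 and -0.03 (log2), and the split of higher to lower calls to 5129 and 7630 for the first comparison and 7051 and 4331 for the second, so the share of higher calls went from 51.0% to 40.2% and from 50.9% to 61.9%.

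Of the member values, 355 kept their direction and side of the threshold, and 12 changed sign and were not sorted by the threshold. Among the rest, 6 newly passed and 0 were lost. Of other named genes these numbers were 2848, 38, 55 and 28. With the copies summed, the family value replaces that of a single gene by construction: for scramble ectosomes against control FCGR2B and FCGR2C became 0.73, for PKM2-knockdown against scramble ectosomes FCGR2A became 0.55, and for PKM2-knockdown ectosomes against control FCGR1B became -0.58. The family value passed the threshold in each of these (edgeR adjusted p = 0.000454, 0.00327 and 0.000636), where FCGR2B, FCGR2A and FCGR1B alone had not. For all other sign changes the cause was not tested. For scramble ectosomes against control, library totals gave DOK3 -0.18, RAB11A -0.074, STAT2 -0.14, UST -0.20 and PLEKHA4 -0.16, no filter DOK3 -0.024 and UST -0.027, and fitting 2 groups DOK3 -0.029 and UST -0.031. For PKM2-knockdown against scramble ectosomes, library totals gave RAB11A 0.13, TRIM21 0.0074, ARF6 0.040, CHMP5 0.025 and MAPK7 0.034. For PKM2-knockdown ectosomes against control, HCST was -0.00151 with DESeq2's size factors in edgeR, -0.029 with library totals, -0.011 with no filter and -0.00353 with DESeq2.

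Leaving out each library in turn gave these ranges for values that changed sign. For scramble ectosomes against control they were FCGR3A -0.54 to 0.56, FCER1G -0.50 to 0.18, DOK3 -0.070 to 0.16, FCAMR -0.22 to 0.60, PLEKHA4 -0.29 to 0.32, SLCO4C1 -0.50 to 0.13, STAT2 -0.13 to 0.22, UFC1 -0.071 to 0.031 and UST -0.37 to 0.32. For PKM2-knockdown against scramble ectosomes RAB11A ran from -0.10 to 0.0093. For PKM2-knockdown ectosomes against control they were FCGR1B -0.22 to 0.27, FCGRT -0.12 to 0.0029, AL391832.2 -0.46 to 0.041, GSN -0.28 to 0.091, HCST -0.13 to 0.20 and RAB11FIP1 -0.22 to 0.030. The FCGR2B share differed by 7.90 to 9.21 points between the kinds of ectosomes, and by 12.6 points with FCGR2C left out of the total, both chosen after seeing the data. At 0 to 11 reads, depth limits FCGR2B and FCGR3A outside the PKM2-knockdown-ectosome libraries.

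With the replicate block, 12179, 11035 and 9401 genes passed, and FCER1G for scramble ectosomes against control was 0.0031. The deviations of same-numbered libraries correlated from -0.222 to 0.204, not all above 0.1, so the numbers are not taken to pair the libraries.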
